A study of Homo sapiens with 9 samples.

Results

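The regions described here are 7713 long peaks of H3K4ox, histone H3 with an oxidised lysine 4, in MDA-MB-231 cells. They are the autosomal peaks of H3K4ox replicate 1 that are 4000 to 6000 bp long and overlap a peak of replicate 2 by at least 1 bp. They make up 31.3% of the 24672 autosomal peaks of replicate 1, which lists 26778 peaks in all. Replicate 2 lists 27287 peaks, of which 25150 are autosomal, and the same rule applied to that list gave 7689 peaks. Each rule asks for overlap with the other list, so the 2 sets cover largely the same stretches and their values are not independent. The regions were chosen by measured values, namely length in replicate 1 and overlap with replicate 2, so lengths, tag counts and summits are given as descriptions. The 2 libraries give each class of peaks 1 value each, and over 2 pairs a two-sided exact permutation test cannot go below p = 0.5, so the values of both libraries are given side by side with no test.

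MDA-MB-231 is an established human cell line from a triple-negative breast cancer. The series has 9 samples, namely 1 histone H3 ChIP-seq library, 2 H3K4ox ChIP-seq replicates made with an antibody raised in house, 1 ATAC-seq library each of shControl cells and of shLOXL2 cells, and RNA-seq libraries of both. The H3 and H3K4ox libraries carry no hairpin in their labels, and no label says that the H3K4ox replicates came from separate cultures. The ATAC peak list used here is cited by the labels of both the control and the LOXL2-depleted library, so it was not assigned to either.

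ChIP-seq recovers the DNA bound to a histone with an antibody, and a peak is a stretch where sequenced tags pile up above background. LOXL2 is a lysyl oxidase-like enzyme that removes the amino group of lysine 4 of histone H3 and leaves an oxidised residue, and in breast cancer cells this mark has been linked to compacted chromatin. ATAC-seq marks DNA that a transposase can reach, so it reads the opposite property, open chromatin. The peak's summit is the base where its tags pile up highest.

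Lengths of H3K4ox peaks fell into a pair of groups in each replicate, and the long group was centred near 5 kb. The median length of the 7713 long peaks was 4842 bp, with the central 50% between 4457 and 5214 bp. In replicate 2 the median was 4840 bp. In replicate 1 the commonest bin of 250 bp in this range was 5000 to 5249 bp, with 1340 peaks, and in replicate 2 it was 4500 to 4749 bp, with 1327. The range therefore takes in a separate mode of the distribution, and its lower limit falls on the rising side of that mode.

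**Figure D1:**
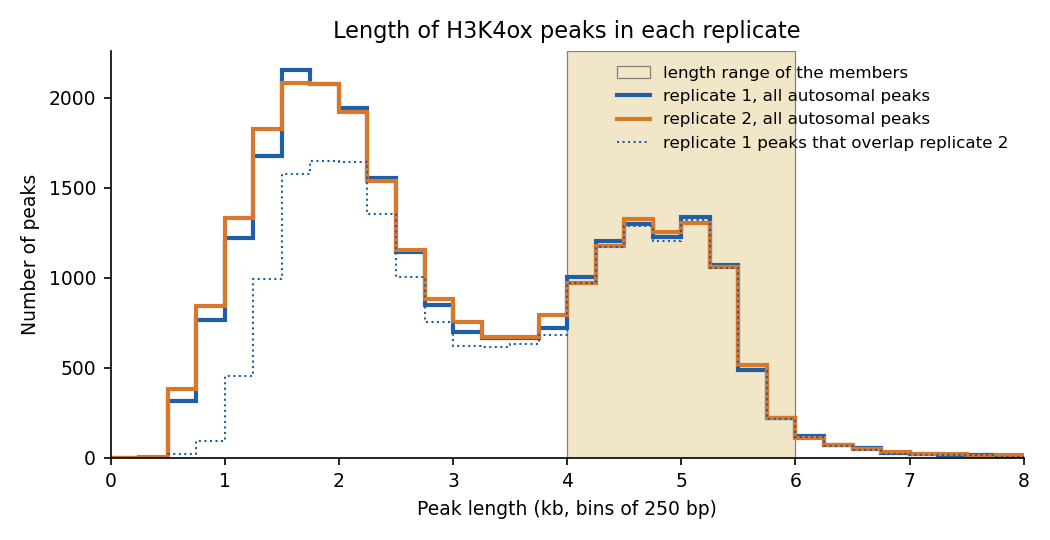
Number of autosomal H3K4ox peaks (vertical axis) by length in kb (horizontal axis, bins of 250 bp) in replicate 1 and replicate 2, with the replicate 1 peaks that overlap replicate 2 dotted and the range of 4 to 6 kb shaded. Both replicates show a tall group of shorter peaks and a separate group inside the shaded range, where the dotted and solid lines nearly coincide.

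The limits of the range cut through peaks that resemble each other. The 269 shared peaks of 3900 to 3999 bp had a median of 45.2 tags per kb, and the 347 of 4000 to 4099 bp had 45.0 tags per kb. At the upper limit the 59 peaks of 5901 to 6000 bp had 49.2 tags per kb and the 54 of 6001 to 6100 bp had 48.4 tags per kb. Of the 7859 autosomal replicate 1 peaks in the range before overlap was asked for, 98.1% met a replicate 2 peak. Among the 13697 replicate 1 peaks of up to 3000 bp, called short peaks from here on, 69.7% did so, which left 9553 shared short peaks for comparison. The remaining 2892 shared peaks were of other lengths.

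The 146 long peaks without a partner were weaker in the authors' own values. Their median fold enrichment was 4.42, against 6.62 in the long peaks with a partner, and their median score was 78.0, against 288.7. The score is 10 times the −log10 of a peak's p-value, going by the layout of the list. Their tag density was close to that of the others, at a median of 45.8 against 48.3 tags per kb.

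The long peaks covered 37.4 Mb in replicate 1 and 37.3 Mb in replicate 2, which is 1.34% of the autosomal span in each. They held 49.6% of all autosomal peak bases in replicate 1 and 48.9% in replicate 2. Of the 3420386 tags inside autosomal peaks in replicate 1 they held 52.9%, and of the 3305065 in replicate 2 they held 52.2%. Less than 1 peak in 3 thus carried most of the tags found in peaks. The lists give tags inside peaks only, so the depth of the whole libraries is unknown.

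Along the chromosomes, long peaks were dense on chromosomes 4, 5, 11 and 3 and sparse on chromosomes 22, 17, 19 and 21. Over all autosomes there were 2.76 long peaks per Mb of span, the span being the stretch between the outermost peaks of a chromosome. Stretches where tags cannot be placed were not taken out of the span. Chromosome 5 had 4.14 per Mb, from 748 peaks, and chromosome 4 had 4.01 per Mb, from 766. Chromosome 22 had 0.856 per Mb, from 30 peaks, and chromosome 17 had 0.977 per Mb, from 79. The highest density was 4.83 times the lowest, and under the replicate 2 rule it was 5.79 times the lowest. The 2 rules gave nearly the same order of autosomes, with a Spearman rho of 0.992 over 22 autosomes. Of 7356 long peaks with 1 partner each way, 90.3% had a partner that was itself 4000 to 6000 bp long. This rho is thus largely set by the choice of regions and does not measure replication.

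Short peaks had a similar order. They stood at 3.42 per Mb over all autosomes, their highest density was 5.59 times their lowest, and their rho with the long peaks was 0.878 over the same 22 autosomes. Both classes come from the same library and the same chromosome spans. ATAC peaks per Mb had a rho of −0.23 with long peaks and −0.40 with short peaks.

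The balance between the classes was uneven across chromosomes. Chromosome 15 had 1.10 long peaks for each short peak, and long peaks were 37.2% of all its peaks. Chromosome 13 had 0.464 and chromosome 21 had 0.485 long peaks per short peak. On chromosome 13 the short peaks reached 3.89 per Mb, above the autosomal mean, while the long peaks stood at 1.80 per Mb, below theirs. Long peaks were 20.6% of the peaks of chromosome 17 and 20.7% of those of chromosome 21, and under the replicate 2 rule 19.6% and 17.7%.

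**Figure D2:**
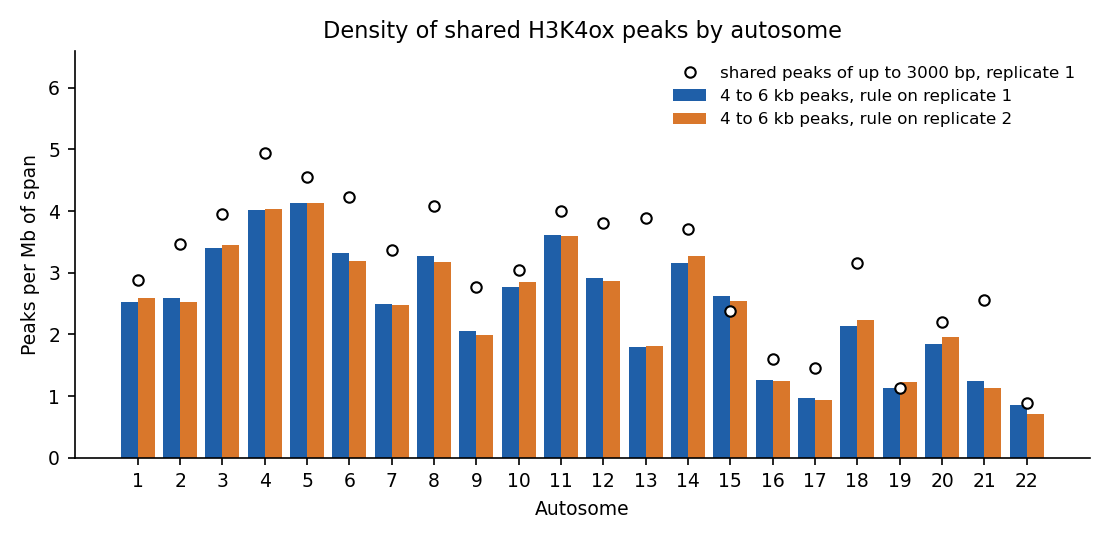
Shared H3K4ox peaks per Mb of span (vertical axis) for each autosome (horizontal axis), with bars for peaks of 4 to 6 kb under the rule on each replicate and circles for shared short peaks of replicate 1. The bars of the 2 replicates are close on every autosome, and the circle stands far above the bars on chromosomes 13 and 21 and below them on chromosome 15.

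Density also differed with distance from the chromosome end, taken as the outermost peak. Over all autosomes, long peaks stood at 1.45 per Mb within 5 Mb of an end, at 1.77 per Mb from 5 to 10 Mb, at 1.97 per Mb from 10 to 20 Mb, at 2.68 per Mb from 20 to 40 Mb, and at 3.55 per Mb beyond. In replicate 2 the outermost and innermost values were 1.47 and 3.54 per Mb. Short peaks went from 1.90 to 4.09 per Mb over the same distances. ATAC peaks went the other way, from 26.8 per Mb near the ends to 16.2 per Mb in the interior.

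Small chromosomes have no bases far from an end, so the same densities were counted on the 12 autosomes with bases up to 60 Mb from both ends. There long peaks stood at 1.67 per Mb within 5 Mb, at 2.11 per Mb from 5 to 10 Mb, at 2.24 per Mb from 10 to 20 Mb, at 2.91 per Mb from 20 to 40 Mb and at 3.51 per Mb from 40 to 60 Mb. Under the replicate 2 rule the first and the last were 1.70 and 3.52 per Mb. Taken singly, 21 of 22 autosomes were denser beyond 10 Mb of an outermost peak than within it, in each replicate, with chromosome 21 as the exception in both. Stretches beyond the outermost peaks lie outside the span, so an outermost peak need not lie near the true end of a chromosome.

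In 2805 windows of 1 Mb, long peaks were present in 79.7% and absent from 569. Of the windows without a long peak, 298 held a shared short peak. There were 611 windows with 5 or more long peaks and 53 with 10 or more. The variance of the count was 2.37 times its mean, against 2.61 times for short peaks, and the densest 10% of windows held 29.8% of the long peaks, against 28.5% of the short peaks. Counts per window thus varied more than their mean in both classes, by similar amounts.

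Windows rich in long peaks also held more short peaks. The mean number of short peaks was 1.30 in windows with no long peak, 2.94 with 1 to 2, 4.40 with 3 to 5, 5.34 with 6 to 9, and 6.02 with 10 or more. Over windows the rho between the classes was 0.505. Between the 2 replicate rules for long peaks it was 0.938, a value largely set by the overlap that both rules ask for. The median count of ATAC peaks in these classes of windows was 21, 17, 16, 16 and 19, with a rho of −0.08 against long peaks.

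The window with most long peaks was 48000000 to 48999999 on chromosome 11 (GRCh37), with 19 under each replicate's rule, 9 short peaks and 20 ATAC peaks. On chromosome 4, the window from 54000000 to 54999999 held 16 long peaks (14 under the replicate 2 rule) and 4 short peaks. The window from 55000000 to 55999999 on chromosome 12 held 16 under each rule and 7 short peaks. The window from 86000000 to 86999999 on chromosome 6 held 15 long peaks (12 under the replicate 2 rule) and 16 short peaks, and that from 26000000 to 26999999 on chromosome 3 held 14 (11 under the replicate 2 rule) and 6 short peaks. Short peaks outnumbered long ones in 1 of these 5 windows, the one on chromosome 6.

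Neighbouring long peaks lay at a median of 160.2 kb from end to start, and at 160.8 kb under the replicate 2 rule. The mean spacing, span divided by number, was 362 kb over all autosomes. On each chromosome's own scale the median gap was 47.3% of the mean spacing for long peaks and 47.0% for short peaks, and the gaps had a coefficient of variation of 1.67 and 1.75. In both classes most gaps were much shorter than the mean. The longest gap between long peaks was 21215 kb and that between short peaks was 21419 kb.

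The classes differed at the smallest distances. Of 7691 gaps between long peaks, 28 were under 1 kb, which is 0.364%, and in the replicate 2 list 18 were, or 0.235%. Of 9531 gaps between shared short peaks, 589 were under 1 kb, or 6.18%, and in replicate 2 6.15% were. Under 10 kb the shares were 5.05% and 11.5%, and under 50 kb they were 23.8% and 27.9%. Close pairs were thus mostly pairs of short peaks, and the 2 classes came nearer to each other as the distance grew.

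The next peak along the chromosome after a long peak was itself a long peak in 35.0% of cases, beside their share of 31.3% of all autosomal peaks. It was a short peak, shared or not, in 51.6% of cases, beside a share of 55.5%. After a short peak the next was again a short peak in 58.0% of cases. The median gap was 47.1 kb between adjacent long peaks and 54.4 kb between adjacent short peaks. Runs of at least 2 long peaks, less than 50 kb apart with no other peak between them, took in 2505 of the 7713 long peaks, 32.5%, in 1094 runs. Runs of short peaks were not counted, so this share has no value of short peaks beside it. The longest run held 7 long peaks over 135.9 kb, at chr12:11439158-11575011, with lengths from 4118 to 5734 bp and 35.0 to 48.2 tags per kb. There were 4 runs of 6, at chr2:60262832-60432782 over 170.0 kb, at chr3:51130070-51305669 over 175.6 kb, at chr6:71623521-71713726 over 90.2 kb and at chr15:87772703-87926658 over 154.0 kb. In replicate 2 the partner was also 4 to 6 kb long for 5 of the 7 long peaks in the longest run, and for 6, 4, 6 and 5 of the 6 in the others.

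Summits of long peaks lay in the central part of the peak less often than those of short peaks. In replicate 1 the summit lay in the central part, the middle 33.3% of the length, in 30.7% of the long peaks, and in replicate 2 in 29.7%. Summits spread evenly over the length would lie there in 33.3%, so this share alone does not show that summits avoid the middle. In short peaks the summit lay there in 73.6% and 72.7%. The share was lower in long peaks on 22 of 22 autosomes in each replicate. Summits lay at least 268 bp from the nearer end in shared short peaks and at least 295 bp in long peaks, which leaves the shortest peaks little room for a summit away from the middle.

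Pooled over all lengths of long peak, the summits formed a pair of maxima, one on each side of the middle. Each peak was divided into 10 parts of equal length, counted from the lower coordinate. The third and the fourth part held 19.9% and 18.9% of summits, the fifth and the sixth held 5.22% and 3.82%, and the seventh and the eighth held 14.4% and 18.1%. In short peaks the fifth and the sixth part held most, 23.1% and 23.8%. The maxima were nearly equal in size, with 53.0% of summits on the side of the lower coordinate in replicate 1 and 51.4% in replicate 2.

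The place of the maxima differed with peak length. The summit lay in the central part in 18.1% of peaks of 4000 to 4499 bp, in 24.7% at 4500 to 4999 bp, in 45.2% at 5000 to 5499 bp, and in 41.5% at 5500 to 5999 bp. In replicate 2 these shares were 18.4%, 22.6%, 43.7% and 42.3%. The median distance from the summit to the nearer end grew from 1066 bp in the shortest of these classes to 1276, 1660 and 1828 bp in the longer ones. At 4000 to 4499 bp the commonest distance was 750 to 1000 bp, and at 5000 to 5499 bp it was 1750 to 2000 bp. The rise of the share in the central part between these lengths therefore went with summits near 1750 to 2000 bp from an end, just inside that part, not with summits at the midpoint.

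**Figure D3:**
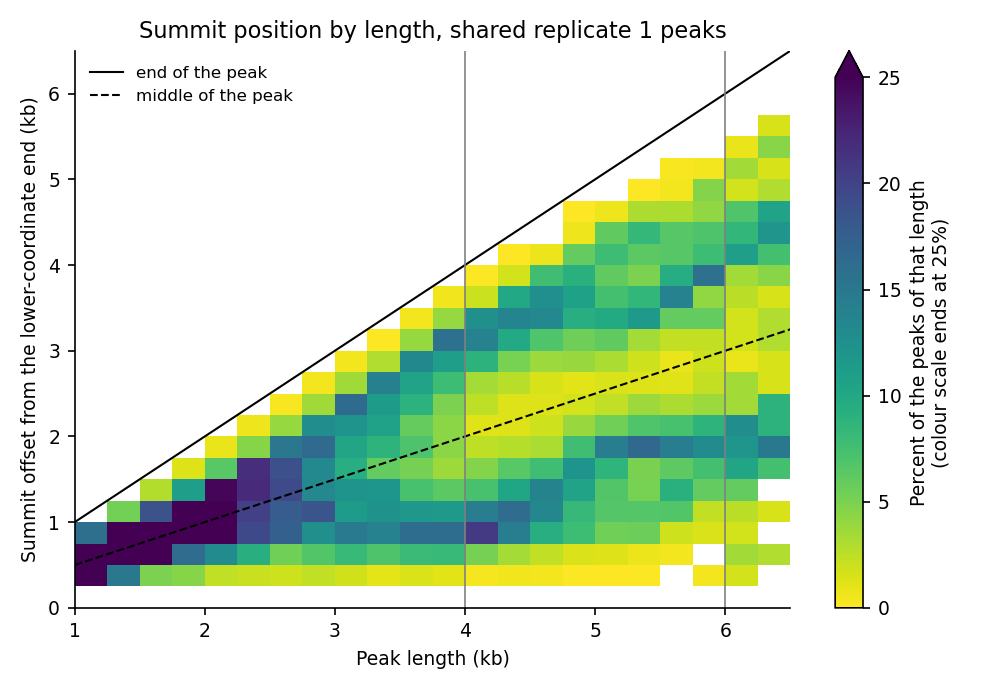
Distance of the summit from the lower-coordinate end in kb (vertical axis) by peak length in kb (horizontal axis) for shared replicate 1 peaks, coloured by the percent of peaks of that length, with the midpoint dashed and the far end as a solid line. From about 3 kb upward the summits leave the dashed line for a band on each side of it, and the 4 to 6 kb range lies wholly in the divided part. At 5250 to 5499 bp each band holds a stronger and a weaker maximum.

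Tag density was higher in long peaks than in short ones, in each replicate and on each chromosome. Tags per kb is the authors' tag count of a peak divided by its length. Its median was 48.3 in the long peaks of replicate 1, with the central 50% between 44.9 and 51.5, and 46.2 under the replicate 2 rule. In shared short peaks the medians were 40.6 and 38.9, so the ratio was 1.19 in both lists. The median per autosome ran from 46.1 to 49.9 in long peaks and from 39.0 to 42.4 in short peaks, so the ranges did not overlap, and the order held on 22 of 22 autosomes in each replicate.

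Tag density grew with length inside both classes and levelled off at the top. In replicate 1 it was 35.2 tags per kb at 1000 to 1499 bp and 42.5 at 2000 to 2499 bp. From 2500 to 3999 bp it was nearly flat, with 43.8, 43.9 and 44.5 in steps of 500 bp. It was 46.6 at 4000 to 4499 bp, 48.5 at 4500 to 4999 bp, 49.0 at 5000 to 5499 bp and 49.1 at 5500 to 5999 bp. Replicate 2 gave 41.6, 41.9 and 42.4 from 2500 to 3999 bp, and 44.8, 46.4, 46.6 and 47.2 for the last 4 lengths. The density of the long peaks thus lay above a nearly flat stretch, with a second rise from 4000 to 4999 bp. Just below and just above 4000 bp the medians were 45.2 and 45.0 tags per kb, so there was no step at that limit.

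Fold enrichment did not follow length in the same way. Its median was 6.62 in long peaks and 6.39 in short peaks of replicate 1, a ratio of 1.04, and 6.39 against 6.11 in replicate 2, a ratio of 1.05. Across the long peaks of replicate 1 the rho of length with fold was 0.01, and that of length with tags per kb was 0.20. Fold compares a peak with a background, and although the H3 library is labelled as a control, no label says that it supplied that background. The score, which depends on the number of tags, had medians of 288.7 in long and 99.9 in short peaks.

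The deposited false discovery rate had a median of 0.29% in the long peaks. It was over 5% in 78 of them in replicate 1 and in 105 under the replicate 2 rule, and in 0 of the shared short peaks of replicate 1. Those 78 had scores from 629.4 to 834 and a median fold of 10.5. In the whole replicate 1 list 99 peaks had a rate over 5%, none scored under 629.4, and no other peak scored over 628.5. In 4 of the 78 long peaks the deposited rate was 100%. The highest rates stood beside the highest scores, so they do not mark the weakest peaks.

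A few long peaks had tag densities far above the rest. In 11 long peaks the density reached 100 tags per kb, and 5 of these lie on chromosome 8 and are not described one by one. Their fold lay between 3.20 and 6.67, so the highest tag densities did not come with the highest folds. Elsewhere the highest was chr9:66477874-66483860, with 122.3 tags per kb, from 732 tags, in replicate 1 and 111.3 in replicate 2. Its fold was 4.97 and 4.89. Next came chr21:10150371-10156200, with 116.5 and 114.7 tags per kb, and chr15:65242954-65247867, with 116.4 and 108.8.

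The peak on chromosome 15 had a fold of only 3.20 in replicate 1 and 2.57 in replicate 2, and its 2 summits lay 2253 bp apart. On chromosome 1, chr1:142943558-142949536 had 110.9 and 99.7 tags per kb, with a deposited false discovery rate of 44.4%, and chr1:142898670-142904358, nearby, had 105.8 and 104.9. Each of these 5 regions was dense in tags in both replicates, and neither copy number nor mappability was examined for them.

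The sparsest long peak was chr11:101744557-101748592, with 29.2 tags per kb, from 118 tags, in replicate 1 and 30.0 in replicate 2. It was followed by chr1:191026879-191031021, with 30.7 and 34.2, and chr11:20365480-20369851, with 31.3 and 35.2 tags per kb. The partners of all 3 were shorter than 4000 bp, at 3097, 2250 and 3890 bp, and covered 76.7%, 54.3% and 84.8% of the replicate 1 peak. Their folds, 5.65, 5.13 and 5.42, lay below the median of 6.62, where the 25th percentile of long peaks was 5.50. Their scores, 98.0, 118.3 and 84.5, were low too, where the 5th percentile of long peaks was 109.8.

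Replicates agreed closely on where a long peak begins and ends. Of the 7713, 7356 had 1 partner that met no other peak, 324 had 2 partners, and 33 had a partner that also met another peak. Among the 7356, the partner covered a median of 96.5% of the peak, and at least 90% in 77.8% of cases. In shared short peaks with 1 partner each way the median was 95.0%, and 67.5% were covered by at least 90%. The starts differed by a median of 178 bp and the ends by 189 bp, which is more than the 125 and 128 bp of short peaks but a smaller part of the length. The partner was itself 4000 to 6000 bp long in 90.3%, between 3 and 4 kb in 6.54%, up to 3000 bp in 1.54% and over 6000 bp in 1.62%.

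The replicates agreed less closely on where in a long peak the summit lies. Summits lay within 500 bp of each other in 52.8% of the 7356 long peaks and in 85.1% of the 8536 short ones. A fixed 500 bp is a larger part of a short peak, and on a scale of length the gap was smaller: summits lay within 10% of the peak's length of each other in 51.9% of long and 58.4% of short peaks. They lay between 0.3 and 0.6 of the length apart in 37.5% of long and 8.73% of short peaks. In bp, the distance within long peaks fell into 2 groups. It was 500 to 1500 bp in 8.28% of long peaks, and 1500 to 3000 bp in 38.1%, where its median was 2242 bp. In short peaks 1.77% had summits 1500 to 3000 bp apart, and 66.2% had them within 250 bp.

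**Figure D4:**
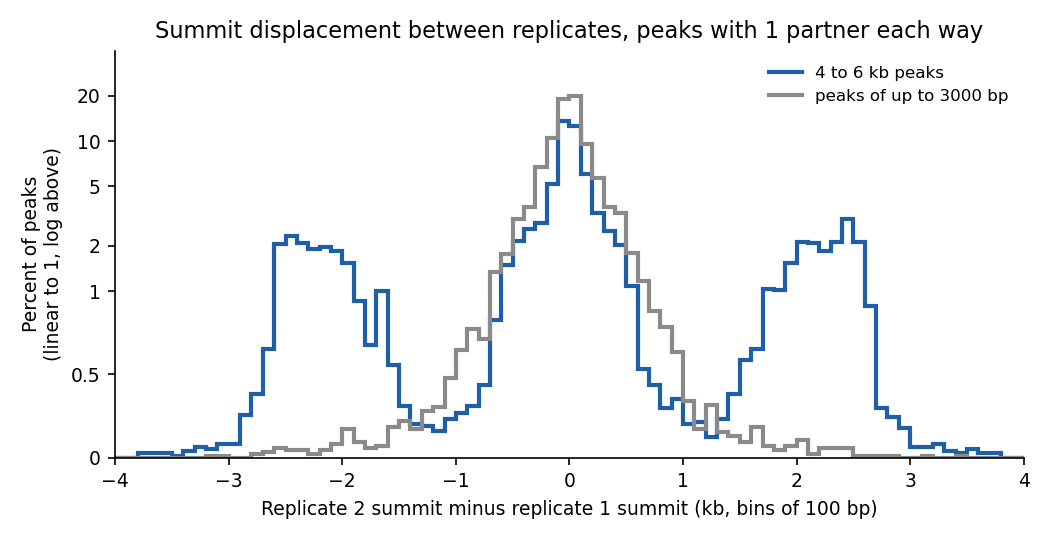
Summit position in replicate 2 minus that in replicate 1 in kb (horizontal axis, bins of 100 bp) and the percent of peaks (vertical axis, linear to 1 and logarithmic above) for peaks with 1 partner each way. Short peaks form 1 group around 0, and peaks of 4 to 6 kb add a group on each side between 1.5 and 3 kb, which together hold 38.1% of them.

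The side of the summit repeated only partly. It lay on the side of the lower coordinate in both replicates in 2310 long peaks and on the other side in both in 2003. It changed sides in 1586 and 1457. It therefore lay on the same side in 58.6%. Among the 3734 long peaks with the summit outside the central part in both lists, the side was the same in 2233, or 59.8%. The share within 500 bp was much the same at all lengths, from 51.5% at 4500 to 4999 bp to 54.0% at 5000 to 5499 bp.

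Where the replicates named summits 1500 to 3000 bp apart inside the same long peak, the 2 positions give a picture of its inner layout. In 2803 such peaks the nearer margin, from one summit to the closest end, had a median of 979 bp, and the opposite margin had 1626 bp. At 4000 to 4499 bp the margins were 839.5 and 1221 bp with 2176 bp between the summits, and at 5000 to 5499 bp they were 1045 and 1887 bp with 2308 bp between them. At 5500 to 6000 bp they were 1332.5 and 1978 bp with 2331 bp between. That most of the added length lay outside the pair of summits is largely set by this choice of distance. Between the first and the second of these lengths the wider margin grew more. Between the second and the longest the narrower margin grew more. The narrower margin was on the side of the lower coordinate in 45.8% of them. Selection of peaks with summits 1500 to 3000 bp apart bounds the distance between the summits, so the medians describe these peaks only.

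Some long peaks appeared as a pair of short peaks in the other replicate. The 324 long peaks with 2 partners met replicate 2 peaks with median lengths of 2131 and 2208 bp, a median gap of 118 bp, and summits 2322 bp apart. Both partners were up to 3000 bp long in 266 of them, or 82.1%. In the reverse direction 311 long peaks of replicate 2 met 2 replicate 1 peaks each, with median lengths of 2200 and 2188 bp, a gap of 125 bp and summits 2311 bp apart. Of the shared short peaks, 0.879% had 2 partners, against 4.20% of the long peaks.

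Some pairs of short peaks in turn appeared as 1 long peak in the other replicate. In replicate 1, 710 pairs of adjacent short peaks were under 1 kb apart, with summits a median of 2212 bp apart and 4266 bp from the first start to the second end. Peaks of this length so close together cannot have summits far from that distance, so it is a description of the pairs chosen. Replicate 2 held 264 of these pairs, 37.2%, as 1 peak of 4000 to 6000 bp, 192 as 2 peaks, 229 as 1 peak of another length, and 25 not at all. A stretch called as 1 long peak in 1 library could therefore be called as 2 short peaks in the other.

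Agreement in size was moderate. Across the 7356 pairs, rho between replicates was 0.501 for length, 0.580 for tags per kb, 0.432 for fold and 0.497 for score. In the 8536 short pairs it was 0.711, 0.659, 0.484 and 0.522. The lengths of long peaks span a narrower relative range by their choice. For the summit's place along the peak rho was 0.154 in long and 0.332 in short peaks. The tag density of the partners had a median of 46.3 tags per kb for long peaks and 39.1 for short peaks, a ratio of 1.19.

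ATAC peaks were rare inside long peaks and about as frequent per base as in short ones. Of the 7713 long peaks, 566 met an ATAC peak, which is 7.34% (exact 95% binomial interval 6.77 to 7.94%, covering counting error only). Of the shared short peaks 307 did, or 3.21% (2.87 to 3.59%). Under the replicate 2 rule the shares were 7.49% and 3.16%. A longer peak has more room to meet one, so the rate per base is given too. It was 15.9 ATAC peaks per Mb of long peak and 16.3 per Mb of short peak, against 19.1 per Mb over the autosomal span. Among autosomes, the rate in long peaks was below that of the chromosome's span in 16 of 22 and above that of short peaks in 13 of 22.

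The ATAC list itself is sparse and weak. It has 53481 autosomal peaks with a median length of 55 bp and a median pileup of 4 at the summit, and 23.9% of them have a q-value of at most 0.05. Inside long peaks 17.9% of the ATAC peaks reached that level, and inside short peaks 22.5% did. The background, pooling and depth behind this list are not given in the sources used here, so a stretch without an ATAC peak is one where none was detectable.

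In the 1 kb around the summit, 1.83% of long peaks held an ATAC peak (interval 1.54 to 2.15%), and 1.34% of short peaks did (1.12 to 1.59%). Under the replicate 2 rule the values were 1.66% (1.39 to 1.98%) and 1.50% (1.26 to 1.76%). The intervals of the 2 classes overlapped in both lists, narrowly in the first, and the difference was not tested. With ATAC peaks of a q-value of at most 0.05 the order turned, to 0.285% in long and 0.304% in short peaks. In the 1 kb around the peak's midpoint the shares were 1.40% for both classes. Over all 1 kb tiles of the autosomal span 1.99% met an ATAC peak.

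Inside the peaks of replicate 1 ATAC summits were spread in a similar way in both classes, with somewhat higher shares in the outermost parts. Of 585 ATAC summits in long peaks, the first to the fifth part of equal length, from the lower coordinate, held 22.9%, 17.9%, 16.6%, 19.1% and 23.4%. Of 306 in short peaks they held 22.5%, 18.0%, 17.3%, 20.3% and 21.9%. Just outside the ends of long peaks the share was above that farther away. In the 1 kb next to each end, 2.37% of windows held an ATAC peak (interval 2.14 to 2.62%), and in the 1 kb from 9 to 10 kb away 1.90% did (1.69 to 2.13%). Under the replicate 2 rule these were 2.43% (2.19 to 2.68%) and 1.76% (1.56 to 1.98%).

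The 2 lists differed in direction at the ends of short peaks, with overlapping intervals in each. In replicate 1 it was 1.43% (1.26 to 1.61%) next to the end, while 1.61% (1.44 to 1.80%) of windows from 9 to 10 kb away held one, and in replicate 2 the values were 1.59% (1.42 to 1.78%) and 1.54% (1.37 to 1.72%). In windows of 500 bp, the share around long peaks was highest from 500 to 1000 bp outside the end, at 1.40% (1.22 to 1.60%), and fell to 0.784% (0.651 to 0.937%) from 1000 to 1500 bp inside it. From 5000 to 5500 bp outside it was 1.25% (1.08 to 1.44%) under the rule on replicate 1 and 1.03% (0.87 to 1.20%) under that on replicate 2. The windows of neighbouring peaks can overlap, and the rule did not use ATAC. The ends of the peaks come from replicate 1 in the first case and from replicate 2 in the second, and both draw on the same ATAC list.

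**Figure D5:**
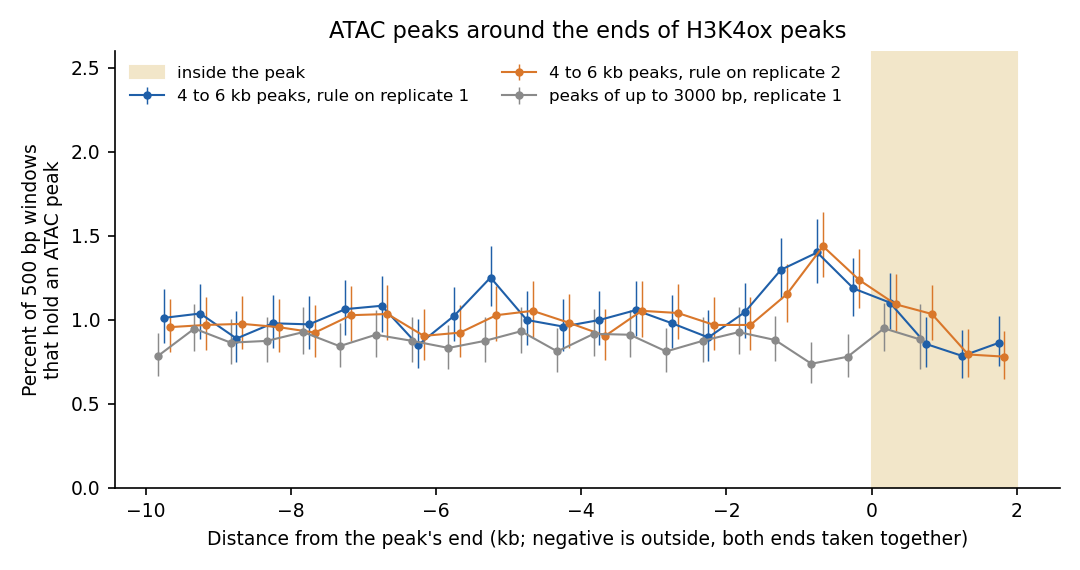
Percent of 500 bp windows that hold an ATAC peak (vertical axis) by distance from the end of the H3K4ox peak in kb (horizontal axis, negative outside, both ends together), with exact 95% binomial intervals as bars and the inside shaded. Around the 4 to 6 kb peaks of each replicate the points rise within about 1.5 kb outside the end, reach 1.40% under the rule on replicate 1, and fall to about 0.8% inside, while the points of short peaks stay under 1%. Under the rule on replicate 1 the point from 5000 to 5500 bp outside also stands at 1.25%.

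Long peaks with and without an ATAC peak had similar medians. Those with one had a median of 49.1 tags per kb, a fold of 6.47 and a length of 4914.5 bp, and those without had 48.2 tags per kb, a fold of 6.67 and a length of 4836 bp. The nearest ATAC summit was a median of 21.7 kb from a long peak and 24.5 kb from a short peak. The long peak with most ATAC peaks, 3, was chr1:228708434-228712951, with 49.6 tags per kb and a fold of 10.3 in replicate 1 and 49.2 tags per kb and a fold of 7.22 in replicate 2. Among those with 2, the highest scores were at chr20:29850594-29855547, with 61.8 tags per kb and a fold of 10.8, and at chr10:23955305-23960578, with 49.7 tags per kb and a fold of 9.72. Score chose those with 2, and score goes with fold, so their folds are no result about ATAC peaks.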

How the data were processed

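Only the H3K4ox and ATAC peak lists of MDA-MB-231 cells were used. GRCh37 and Bowtie are named in the submitters' processing notes. The authors called H3K4ox peaks separately in each replicate and deposited, for each peak, a tag count not scaled to depth, a score, a fold ratio and a percent false discovery rate, with length and summit offset. These lists have no header and were read by the layout of MACS 1.x output, and no label names the caller or ties the H3 library, marked as control, to the folds. Per the file header, the ATAC list gives pileup (a signal), fold and −log10 q. It carries the name of the shLOXL2 library, yet both ATAC labels cite it. Scores and folds are the authors' and were used within a list only. Peaks were not placed against genes.

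Peaks were compared by overlaps of at least 1 bp. Regions named are the 5 densest and 3 sparsest in tags per kb, the 3 with most ATAC peaks, the 5 fullest windows of 1 Mb and the 3 longest runs, leaving out chromosome 8. The regions, classes and this rule were chosen with earlier results of these data known. The margins of summit pairs, the profile around peak ends, summit distances relative to length, densities on large chromosomes and the further runs of 6 were added after values were seen. Alternatives covered length limits, overlap, score, false discovery rate, replicate, windows, ATAC q-value and each replicate left out. The overlap and distance code was tested on simulated data. ATAC shares carry exact 95% Clopper-Pearson intervals. Coordinates are GRCh37, 1-based. Python 3.11.15, numpy 2.4.6, pandas 2.3.3, scipy 1.17.1 and matplotlib 3.10.9 were used.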

Additional observations from a re-analysis of the deposited data

How the results depend on the processing

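No paired analysis was possible because the 2 libraries give 2 pairs, over which a two-sided exact permutation test cannot go below p = 0.5. This limit concerns a test of long against short peaks, so none was run and both libraries are given side by side. Peaks were paired between the replicates only to describe agreement. With lengths of 4500 to 5500 bp there were 4874 long peaks, in 69.2% of 1 Mb windows, with a median gap of 50.5% of the mean spacing, 34.7% of summits in the central part and a tag density 1.20 times that of short peaks. With 3500 to 6500 bp these were 83.2% of windows, 46.8% and 1.18 times, and 53.1% of summits agreed within 500 bp. Asking for 50% of the peak to be covered gave a density ratio of 1.19. Scores of at least 100 in both lists gave 77.4% of windows and a ratio of 1.11. The rule on replicate 2 gave 79.2% of windows, 47.8%, 29.7%, 1.19 times, 53.0% and an ATAC share at the summit of 1.66%. Windows of 2 Mb held a long peak in 90.1%, and gaps from summit to summit had a median of 48.8% of the mean spacing. With either replicate left out, overlap was not asked for, and agreement could not be computed. The 1-replicate values were 80.8 to 81.5% of windows, 48.2 to 48.4% for the gap, 29.7 to 30.7% for the summit, 1.22 to 1.22 times for tags per kb and 1.69 to 1.88% for ATAC at the summit. ATAC windows of 500 bp gave 1.01%, the peak's midpoint 1.40%, and a −log10 q of at least 10, which 1 of 53481 ATAC peaks reached, left 0. Chosen after seeing the data, an ATAC q-value of at most 0.05 gave 0.285% in long and 0.304% in short peaks, which turns their order, and a false discovery rate of at most 5% gave a ratio of 1.19 and agreement of 53.1%. Without replicate 1, ATAC at the summit was 1.69% in both long and short peaks. Few ATAC peaks stand behind these shares.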

Other observations

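Chromosome X lay outside the rule. It held 395 shared peaks of 4 to 6 kb in replicate 1, or 2.57 per Mb, and 374 in replicate 2, or 2.43 per Mb. They were 20.7% and 19.0% of its peaks, since its shared short peaks stood at 6.89 and 7.06 per Mb. The long peaks of chromosome X had medians of 44.7 and 42.8 tags per kb in the 2 replicates, and its short peaks had 37.5 and 36.1. Their summit lay in the middle 33.3% of the length in 24.8% and 22.2% of cases. An ATAC peak met 6.83% and 6.95% of them, on a chromosome with 7.07 ATAC peaks per Mb.

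Shared autosomal peaks of over 6 kb numbered 342 in replicate 1, with a median length of 6426 bp and a longest of 11003 bp. They had a median of 48.8 tags per kb and a fold of 6.55, and their summit lay in the middle 33.3% in 36.0% of cases. Among them 6.73% met 2 or more replicate 2 peaks. Of the 146 autosomal peaks of 4 to 6 kb without a partner, 2 had a replicate 2 peak within 1 kb, and the summit lay in the middle 33.3% in 32.2%.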
